A study of Mus musculus with 10 samples.

Results

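The genes described here encode the enzymes that remove superoxide and peroxide in and around mitochondria, with Sod2, the gene that was knocked down, at their head. They were chosen by name: Sod1, Sod2, Sod3, Cat, Gpx1, Gpx4, Prdx3, Prdx5, Txn2 and Txnrd2. Of these 10 genes, 9 had 1 transcript cluster (a group of array probes for one transcript region) annotated with that gene symbol alone, and all 9 were among the 13308 genes tested of 22180 measured. No such cluster was found for Prdx5, which is not analysed here. Each of the 9 had a single cluster, so no choice between clusters was needed.

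RNA came from 25 mg of liver tissue per sample, from male mice aged 4 weeks, with 10 arrays in 3 groups. The 4 control livers carried Rosa26-rtTA alone. Another 3 carried Rosa26-rtTA with SOD2 shRNA 1, and 3 carried Rosa26-rtTA with SOD2 shRNA 2. The rtTA protein, made in all animals, is a transcription factor that is active only with doxycycline, and short hairpin RNAs (shRNA) silence the messenger they match. Pregnant dams were fed doxycycline chow at 625 mg/kg so that Sod2 was knocked down from embryonic day 0 to 12.5, and controls were littermates. The 6 hairpin livers are called adapted, as in the labels. Each hairpin had a cohort of its own. Most controls, 3 of the 4, were littermates of the shRNA 2 livers and 1 was a littermate of the shRNA 1 livers, not said which, so between the 2 lines hairpin and cohort cannot be told apart. For the same reason shRNA 1 against control is mostly a comparison across cohorts, and adapted against control is so in part; this holds for every such value given for shRNA 1 and for both lines together. Strain and hairpin sequences were not among the sources used here. Nothing in the labels ties each numbered liver sample to its own animal, and p-values therefore cover only the spread among these samples, which may be technical.

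Superoxide leaks from the respiratory chain and is turned into hydrogen peroxide by superoxide dismutases. Sod2 is the manganese enzyme of the mitochondrial matrix, Sod1 the copper and zinc enzyme of the cytosol and intermembrane space, and Sod3 the secreted form. The peroxide is then removed by catalase in peroxisomes, by glutathione peroxidases, and in the matrix chiefly by peroxiredoxin 3, which is recharged by thioredoxin 2 and thioredoxin reductase 2. Liver holds much of all these systems, and mice that lack Sod2 altogether die early in life.

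The start regions of 5 of these genes are shown, those in the 4 pairs of enzymes with the strongest correlations from liver to liver described further on. Each sequence is the 250 bases before the start of transcription in RefSeq, assembly GRCm38.p6, 5′ to 3′ on the gene's own strand, and 9 of the 10 genes had an entry. Capitals mark the Sp1 box GGGCGG, the CCAAT box and the antioxidant response element core TGACNNNGC, searched on both strands. The window of Sod2 is chr17:13007589-13007838 (+ strand), that of Prdx3 chr19:60874539-60874788 (- strand), that of Cat chr2:103485154-103485403 (- strand), that of Txn2 chr15:77928995-77929244 (- strand) and that of Sod1 chr16:90220512-90220761 (+ strand).
Sod2: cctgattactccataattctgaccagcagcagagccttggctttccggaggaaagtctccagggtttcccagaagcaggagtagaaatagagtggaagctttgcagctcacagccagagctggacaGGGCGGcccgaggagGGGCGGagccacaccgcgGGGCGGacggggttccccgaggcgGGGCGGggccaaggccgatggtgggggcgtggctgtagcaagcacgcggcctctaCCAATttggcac
Prdx3: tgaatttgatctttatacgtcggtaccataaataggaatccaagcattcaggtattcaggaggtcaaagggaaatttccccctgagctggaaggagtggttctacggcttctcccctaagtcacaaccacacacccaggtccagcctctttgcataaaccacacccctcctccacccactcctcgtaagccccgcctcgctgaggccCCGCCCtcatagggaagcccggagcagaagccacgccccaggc
Cat: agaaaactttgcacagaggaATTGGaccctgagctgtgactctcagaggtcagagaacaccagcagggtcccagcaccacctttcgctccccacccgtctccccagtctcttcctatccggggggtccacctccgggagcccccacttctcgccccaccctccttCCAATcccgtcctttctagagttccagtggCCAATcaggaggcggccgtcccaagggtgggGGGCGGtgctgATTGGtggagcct
Sod1: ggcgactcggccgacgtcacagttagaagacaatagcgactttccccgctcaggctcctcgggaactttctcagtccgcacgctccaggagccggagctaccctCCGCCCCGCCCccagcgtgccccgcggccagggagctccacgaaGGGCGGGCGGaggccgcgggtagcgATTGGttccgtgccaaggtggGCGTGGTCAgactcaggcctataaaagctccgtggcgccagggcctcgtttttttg
Txn2: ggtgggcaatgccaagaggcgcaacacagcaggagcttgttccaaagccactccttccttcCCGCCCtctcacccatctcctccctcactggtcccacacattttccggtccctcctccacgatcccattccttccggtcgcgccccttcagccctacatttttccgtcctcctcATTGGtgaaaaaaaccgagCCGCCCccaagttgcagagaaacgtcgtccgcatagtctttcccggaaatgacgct
Sod2 had 4 Sp1 boxes and 1 CCAAT box, Prdx3 had 1 Sp1 box and 0 CCAAT boxes, and Cat had 1 Sp1 box and 4 CCAAT boxes. Txn2 had 2 Sp1 boxes and 1 CCAAT box. In Sod1 there were 4 Sp1 boxes, some of them overlapping, 1 CCAAT box and 1 antioxidant response element core. Over all 32851 windows of this length, 32.7% held an Sp1 box, 33.8% a CCAAT box and 10.2% the antioxidant core. The ERR element TCAAGGTCA, the FOXO site GTAAACA and the palindromic NRF1 site were in 0 of these 5 windows, against 0.387%, 3.17% and 0.782% of all windows. A match of letters describes the window and is not evidence of binding.

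Array medians lay between log2 4.06 and 4.17 and the number of arrays limits the precision. All 10 hepatocyte markers on the list passed the level filter of log2 3.98, and their summed levels (linear scale) were 59090 to 60320 in controls, 61310 to 63530 in shRNA 1 livers and 58260 to 60680 in shRNA 2 livers. Of the red cell precursor markers 1 of 6 measured passed, and of the neutrophil markers 0 of 8. Summed levels of 10 endothelial markers were 4554 to 4920 in controls, 5170 to 5241 in shRNA 1 livers and 4770 to 5025 in shRNA 2 livers. Those of 10 stellate and smooth muscle markers were 3305 to 3583, 3619 to 3933 and 3603 to 4054 in the same order. Macrophage sums were 3450 to 3950, 3508 to 4042 and 3550 to 4567. Cholangiocyte sums, with 4 of 6 measured markers past the filter, were 132 to 147, 112 to 126 and 127 to 132, and those of T, NK and B cells, with 6 of 9, were 235 to 302, 279 to 302 and 259 to 296. The hepatocyte and endothelial sums in shRNA 1 livers and the stellate and smooth muscle sum in both lines thus lay above every control. The cholangiocyte sum in shRNA 1 livers lay below every control. Single markers went both ways. In shRNA 1 livers 6 of 10 hepatocyte, 7 of 10 endothelial and 6 of 10 stellate and smooth muscle markers had a mean above that of controls. So had 1 of 4 cholangiocyte markers past the filter, and in shRNA 2 livers 8 of 10 stellate and smooth muscle markers. The part of these sums in the results below was not tested. In bulk liver tissue, fewer cells of a type and less RNA per cell cannot be told apart.

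Sod2, the targeted gene, did not differ past the threshold between the 3 groups at 4 weeks of age, when the knockdown period was over. In controls Sod2 was at log2 10.38, 10.49, 10.33 and 10.33. In shRNA 1 livers it was at 10.43, 10.43 and 10.32, and in shRNA 2 livers at 10.34, 10.47 and 10.24. The groups overlapped, with the highest value in a control and the lowest in an shRNA 2 liver. Adapted minus control had a 95% interval of -0.18 to 0.15 on the log2 scale in limma, or 0.883 to 1.11 as a fold (adjusted p = 0.980). By line the intervals were -0.19 to 0.21 for shRNA 1 (adjusted p = 0.994) and -0.23 to 0.16 for shRNA 2 (adjusted p = 0.961). As a percent change from control the lower bounds were -11.7% for all adapted livers, -12.2% for shRNA 1 and -14.8% for shRNA 2. These are single-gene intervals, not widened for the number of genes. Within groups Sod2 varied little, with a pooled SD of 0.087, and 8.89% of tested genes had a smaller one.

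Sod1 and Sod3, the dismutases outside the matrix, did not differ from controls past the threshold, and their means lay on opposite sides in the 2 lines. Sod1 was at 12.00, 11.91, 11.93 and 12.17 in controls, at 12.13, 12.08 and 12.18 in shRNA 1 livers, and at 12.06, 11.83 and 12.06 in shRNA 2 livers. All 3 shRNA 1 livers were above all 3 shRNA 2 livers, while both groups overlapped the controls. The difference of adapted livers from controls was +0.05 (interval -0.13 to 0.23, adjusted p = 0.915 in limma). Sod3 showed the reverse order. It was at 6.41, 6.49, 6.69 and 6.85 in controls, at 6.49, 6.43 and 6.40 in the shRNA 1 line, and at 6.74, 6.52 and 6.73 in shRNA 2 livers. Here the controls spanned nearly the whole range and every shRNA 1 liver was below every shRNA 2 liver. Adapted minus control was -0.06 (interval -0.27 to 0.15, adjusted p = 0.915 in limma).

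shRNA 1 minus shRNA 2 was +0.15 for Sod1 and -0.22 for Sod3, with limma adjusted p-values of 0.917 and 0.887. The exact two-sided permutation p was 0.10 for each, the smallest that 3 against 3 samples can give. Among the 9 enzymes 2 thus had lines that do not overlap, against 11.3% of all genes tested. Between the lines the summed endothelial, hepatocyte and cholangiocyte markers did not overlap either, while those of stellate and smooth muscle cells did. The part of these sums in the differences was not tested.

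**Figure D1:**
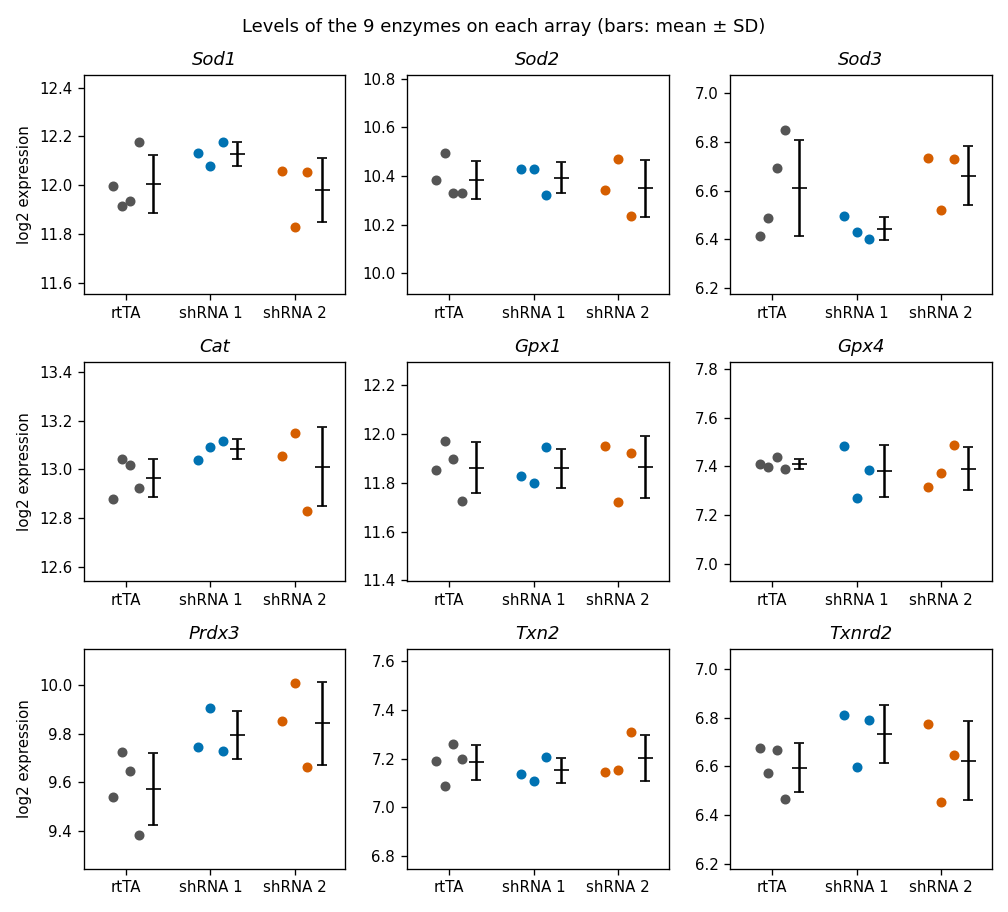
Log2 expression of the 9 enzymes on each array (points) by group, with the mean and SD of each group beside them; every panel spans 0.9 log2 units. The points of Prdx3 in both hairpin groups lie above most controls (9.66 to 10.01 against 9.39 to 9.72), while those of Sod2 overlap in all 3 groups.

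Catalase and the glutathione peroxidases, which remove peroxide outside the thioredoxin system, did not differ from controls past the threshold either. Cat, the peroxisomal enzyme, was at 12.88, 13.04, 13.02 and 12.92 in controls, at 13.04, 13.09 and 13.12 in shRNA 1 livers, and at 13.05, 13.15 and 12.83 in shRNA 2 livers. Adapted livers held both the 4 highest values and the lowest one, so the groups overlapped. The difference was +0.08 (interval -0.09 to 0.26, adjusted p = 0.830 in limma). Cat is among the most abundant messengers on these arrays, with 99.8% of tested genes lower, and the highest deposited value of any cluster was 13.82.

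Gpx1, the main glutathione peroxidase of cytosol and matrix and a selenoprotein, was at 11.85, 11.97, 11.90 and 11.72 in controls. It was at 11.83, 11.80 and 11.95 in shRNA 1 livers and at 11.95, 11.72 and 11.92 in shRNA 2 livers. The 3 group means were 11.86, 11.86 and 11.86, and the interval of adapted minus control was -0.18 to 0.18 (adjusted p = 0.998 in limma). Gpx4, the selenoprotein that reduces lipid peroxides within membranes, was at 7.41, 7.40, 7.44 and 7.39 in controls. In shRNA 1 livers it was at 7.48, 7.27 and 7.39, and in shRNA 2 livers at 7.31, 7.37 and 7.49. Controls lay within 0.05 of each other and the hairpin livers, at 7.27 to 7.49, lay on both sides of them. The mean difference was -0.02 (interval -0.18 to 0.14, adjusted p = 0.961 in limma). A difference in spread was not tested.

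Prdx3, the peroxiredoxin of the mitochondrial matrix, stood furthest from control among the 9 enzymes, but it did not pass the threshold over all genes. In controls it was at 9.54, 9.72, 9.65 and 9.39. In shRNA 1 livers it was at 9.74, 9.91 and 9.73, and in shRNA 2 livers at 9.85, 10.01 and 9.66. All 3 shRNA 1 livers and 2 of the shRNA 2 livers were above every control, the exception being shRNA 2 replicate 3, and none was below every control. Group means were 9.57 ± 0.15 (SD, n = 4), 9.79 ± 0.10 (SD, n = 3) and 9.84 ± 0.17 (SD, n = 3). Adapted minus control was +0.24 on the log2 scale with a standard error of 0.095, a fold of 1.18 with an unadjusted interval of 1.03 to 1.37. The limma adjusted p was 0.521, and the exact two-sided permutation p of 6 against 4 samples was 0.0238, where the smallest possible is 0.00476. By line the difference was +0.22 for shRNA 1 (interval -0.03 to 0.47, adjusted p = 0.681) and +0.27 for shRNA 2 (interval 0.02 to 0.51, adjusted p = 0.630), both in limma. The lines differed by -0.05 (interval -0.31 to 0.21). Both lines share the same controls, of which replicate 4 was the lowest; without it adapted minus control was +0.18.

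The proteins that recharge Prdx3 had smaller differences from control. Txn2, the mitochondrial thioredoxin, was at 7.19, 7.09, 7.26 and 7.20 in controls, at 7.14, 7.11 and 7.21 in shRNA 1 livers and at 7.15, 7.15 and 7.31 in shRNA 2 livers. The groups overlapped throughout, and the interval of adapted minus control was -0.17 to 0.15 (adjusted p = 0.988 in limma). Txnrd2, the selenoprotein that reduces Txn2 with NADPH, was at 6.68, 6.57, 6.67 and 6.47 in controls. It was at 6.81, 6.60 and 6.79 in shRNA 1 livers and at 6.77, 6.45 and 6.65 in shRNA 2 livers. Adapted livers thus ran from 6.45 to 6.81 and controls from 6.47 to 6.68. The difference was +0.08 (interval -0.11 to 0.28, adjusted p = 0.849 in limma), made of +0.14 in shRNA 1 and +0.03 in shRNA 2 livers.

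**Figure D2:**
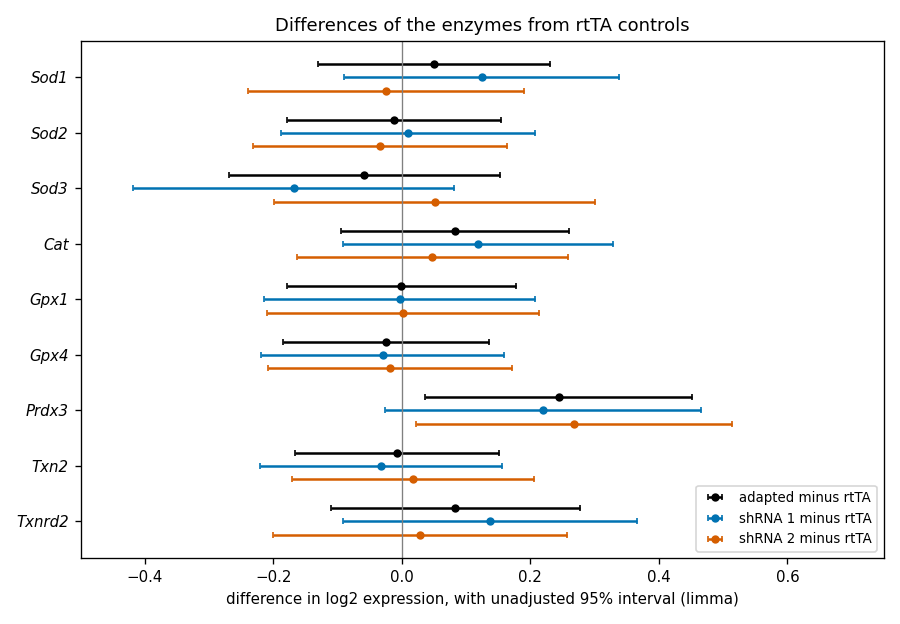
Difference in log2 expression from the rtTA controls for each enzyme, with its unadjusted 95% interval from limma, for both lines together (black), shRNA 1 (blue) and shRNA 2 (orange). Prdx3 alone has intervals above 0, for both lines together (0.04 to 0.45) and for shRNA 2 (0.02 to 0.51).

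Across the 9 enzymes, adapted minus control ranged from -0.06 to +0.24, with 4 above and 5 below 0. Their median absolute difference was 0.050, against 0.084 over all genes tested. At an adjusted p of 0.05 limma called 0 of 9, against 0.00751% of all genes. At an unadjusted p of 0.05 it was 1 of 9, Prdx3, against 8.37% of all genes. In shRNA 1 livers 0 of 9 passed the adjusted threshold, as did 0% of all genes, and 0 of 9 the unadjusted one, against 7.89%. The enzymes whose shRNA 1 livers do not overlap the controls were 1 of 9 (Prdx3), against 5.07% of all genes in that direction. In shRNA 2 livers 0 of 9 passed the adjusted threshold (0.00751% of all genes) and 1 of 9, Prdx3 again, the unadjusted one (7.6%). Between the lines 0 of 9 passed either threshold, against 0.015% and 6.02% of all genes. These shares are near the background, and the sign of small differences depended on scaling: with each array centred on its median, 8 of the 9 were above 0, as were 61.9% of all genes, against 52.0% without centring.

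Variation from liver to liver within groups was compared between the enzymes, and the pairs that passed depended on how arrays were exchanged in the test. Each gene's group mean was removed, and the 36 pairs of enzymes were correlated over the 10 arrays, with p-values from permutation and adjusted over the 36 pairs. Sod1 and Prdx3 had the strongest correlation, an opposite one, with Pearson r = -0.90 (p = 5.5e-04, adjusted p = 0.0148, 100000 permutations) and Spearman rho = -0.87 (p = 0.00225, adjusted p = 0.068). Sod2 and Txn2 were next, with r = -0.88 (p = 8.2e-04, adjusted p = 0.0148) and rho = -0.82 (p = 0.006, adjusted p = 0.072) by permutation. Without the 2 arrays farthest from the median of the first gene r was -0.83 and -0.77. These 2 pairs passed when arrays were exchanged freely. Free exchange takes no account of the group means removed, so its p-values can be too small. The count was 0 without control replicate 2, 8 without control replicate 3, 4 without control replicate 1 or without control replicate 4, and 1 without shRNA 2 replicate 3. When arrays were exchanged only within their group, an exact test chosen after seeing the data with 864 arrangements, 0 of 36 pairs passed: the p was 0.00231 for Sod1 with Prdx3 (adjusted p = 0.0833) and 0.0116 for Sod2 with Txn2 (adjusted p = 0.208).

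Sod2, Prdx3 and Cat had positive correlations that did not pass, with the permutation p-values given here again from free exchange. For Sod2 with Prdx3 r was 0.80 (permutation p = 0.00561, adjusted p = 0.0505; rho 0.84, p = 0.00378, adjusted p = 0.068) and 0.67 without the 2 arrays. For Cat with Prdx3 r was 0.80 (permutation p = 0.00528, adjusted p = 0.0505; rho 0.76, p = 0.015, adjusted p = 0.13) and 0.78 without the 2 arrays. Control replicate 2 and shRNA 2 replicate 2 were high in all 3 of these genes and low in Sod1, at 0.15 and 0.17 above the group mean for Prdx3 and 0.09 and 0.15 below it for Sod1. shRNA 2 replicate 3 was low in all 3, by 0.11 for Sod2, 0.18 for Prdx3 and 0.18 for Cat, and high in Txn2, by 0.11. Control replicate 4 was lowest for Prdx3 and highest for Sod1. Gpx1 and Txnrd2 formed another pair, with r = 0.74 (permutation p = 0.0174, adjusted p = 0.107) and 0.37 without the 2 arrays; leaving out any single array gave r of 0.56 to 0.87.

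**Figure D3:**
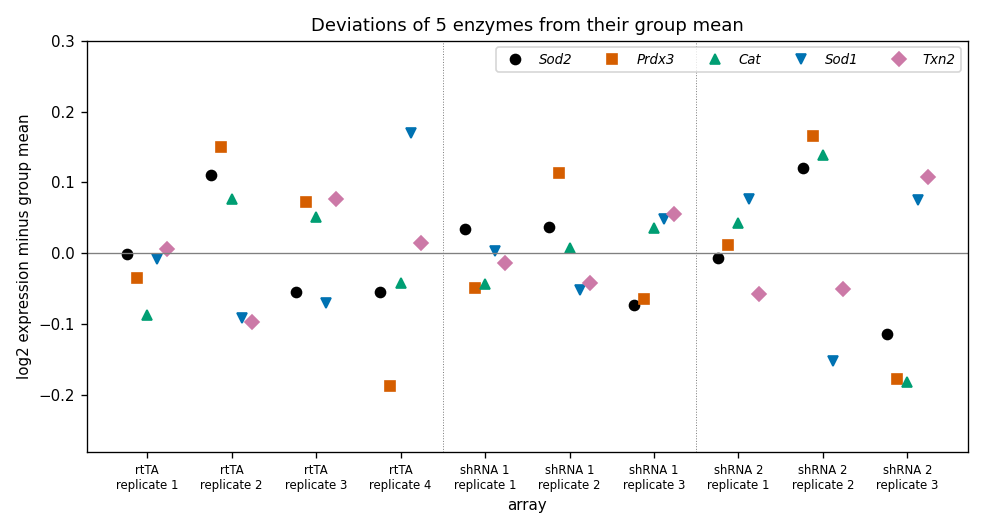
Log2 expression of 5 enzymes minus the mean of their group, array by array, with dotted lines between the 3 groups. Sod2, Prdx3 and Cat lie high and Sod1 and Txn2 low on rtTA replicate 2 and shRNA 2 replicate 2, and the order is turned on shRNA 2 replicate 3.

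Correlations with r at least 0.6 from 0 were common on these arrays. With r at least 0.6 from 0 in either direction, Prdx3 was paired with 25.3% of all other genes tested, Cat with 26.7%, Sod1 with 20.1%, Sod2 with 14.8%, Sod3 with 13.7%, Txnrd2 with 12.4%, Gpx1 with 11.9%, Txn2 with 11.6% and Gpx4 with 11.6%. Among the 8 other enzymes, those at that size numbered 4 for Sod1, 4 for Sod2, 4 for Prdx3, 3 for Cat, 2 for Txn2, 1 each for Sod3, Gpx1 and Txnrd2, and 0 for Gpx4. These counts are given as a description, without a test of whether the enzymes correlate more with each other than other genes do. An r as far from 0 as that of Sod1 with Prdx3 was reached by 0.579% of genes with Sod1 and 1.30% with Prdx3. For Sod2 with Txn2 the shares were 0.519% and 0.323%. The points share their array, RNA extraction and normalization. When only the overall mean was removed, leaving the group differences in, Sod1 with Prdx3 had r = -0.42, Sod2 with Prdx3 had 0.47 and Sod2 with Txn2 kept -0.88, so that 1 pair passed.

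**Figure D4:**
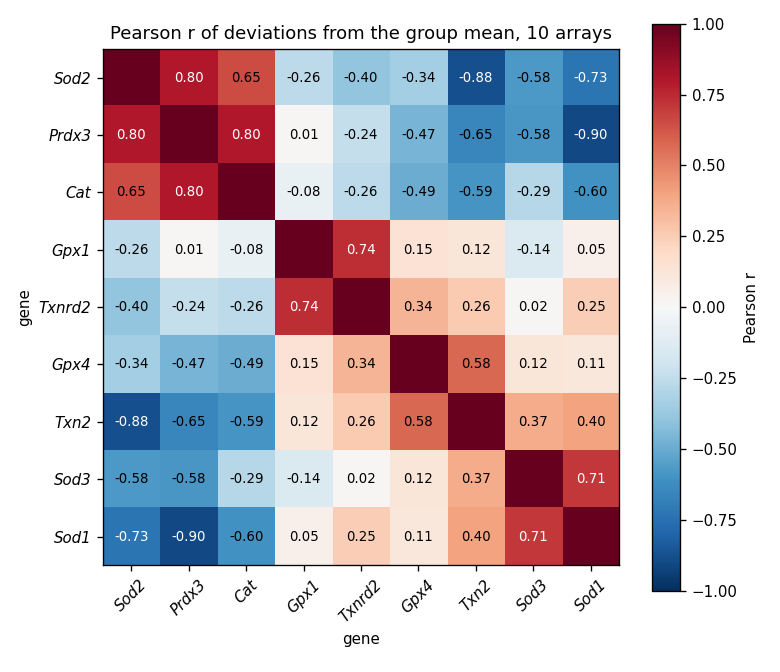
Pearson r between the 9 enzymes over 10 arrays after removal of group means, red for the same and blue for opposite direction. The block of Sod2, Prdx3 and Cat has r of 0.65 to 0.80, and the darkest blue cells are Sod1 with Prdx3 (-0.90) and Sod2 with Txn2 (-0.88).

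The genes whose pattern over the 10 arrays was most like that of an enzyme, after group means were removed, are given as a description. For Sod2 they were Suclg2, a subunit of the mitochondrial succinyl-CoA ligase (r = 0.96), Inip (0.96) and Snrpd1, a core spliceosome protein (0.96). For Prdx3 they were Gdap2 (0.98), Pi4k2b, a phosphatidylinositol kinase (0.98), and Vcl, the adhesion protein vinculin (0.97). For Gpx4 they were Atp6v1e1, a subunit of the vacuolar proton pump (0.98), Tchp (0.96) and Mdfi (0.96). They head a search over 13307 genes, in which values this high arise by selection.

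The enzymes depend on NADPH, glutathione, selenium and metals, and genes for these supplies were read from 7 lists holding 105 tested genes. In limma 0 of the 105 passed the adjusted threshold in adapted against control, and the smallest adjusted p was 0.264. Across all genes 4.86% were higher and 3.51% lower at an unadjusted p of 0.05, and 52.0% had a difference above 0. Counts of adapted livers beyond every control are given below for genes named by their largest statistic. That choice favours high counts, and the share over all genes is given only where stated.

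The list for cytosolic and secreted peroxide defence also holds proteins of the endoplasmic reticulum and the thioredoxin inhibitor Txnip. Of its 19 tested genes 16 were above 0, with a median of +0.11 against +0.0058 over all genes. At the unadjusted threshold 1 was higher and 0 lower. The count above 0 was 15 with quantile normalization and 16 with median centring. It was 14 with array weights and 14 without control replicate 1. Glrx, the cytosolic glutaredoxin that removes glutathione from proteins, ran from 8.29 to 8.80 in controls, 8.96 to 9.11 in the shRNA 1 line and 8.80 to 9.08 in the shRNA 2 line, a difference of +0.39 (limma adjusted p = 0.382). It was above every control in 5 of 6 adapted livers. Txnip, which binds and inhibits thioredoxin, was at +0.26, Sesn2, a stress-induced sestrin, at +0.20 and Msra, which repairs oxidised methionine, at +0.17, with adjusted p-values of 0.599 to 0.641.

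For glutathione synthesis, reduction and import 10 of 15 genes were above 0 (median +0.06), with 2 higher and 0 lower at the unadjusted threshold. The median was +0.0040 with quantile normalization and +0.03 without shRNA 1 replicate 3. The 2 genes were carriers of the inner mitochondrial membrane: Slc25a11, the oxoglutarate carrier, at +0.21 (adjusted p = 0.513) and Slc25a10, the dicarboxylate carrier, at +0.21 (adjusted p = 0.571). Slc25a11 was above every control in 5 of 6 adapted livers and Slc25a10 in 4 of 6. Slc25a39 and Slc25a40, other carriers on the list, named here after their values were seen, were at -0.0054 and +0.15 (limma adjusted p = 0.991 and 0.749). Gstk1, a glutathione transferase of mitochondria and peroxisomes, was at +0.18 and Mgst1, the microsomal one, at -0.13.

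The list for mitochondrial NADPH supply, which also holds Aldh4a1, not itself a maker of NADPH, had 6 of 8 genes above 0 (median +0.06). At the unadjusted threshold 2 were higher and 0 lower. The median was +0.01, with 4 of 8 above 0, without shRNA 2 replicate 3, and +0.02 without shRNA 1 replicate 1 or without control replicate 3. Shmt2, the serine hydroxymethyltransferase that feeds mitochondrial one-carbon units, was at +0.24 (adjusted p = 0.513) and above every control in 5 of 6 adapted livers. Idh2, the NADPH-making isocitrate dehydrogenase of the matrix, ran from 8.73 to 8.89 in controls, 9.13 to 9.32 in the shRNA 1 line and 8.70 to 9.17 in the shRNA 2 line. Its 3 shRNA 1 livers lay above every control, as did those of 5.07% of all genes tested. The limma adjusted p was 0.402 for shRNA 1 and 0.927 for shRNA 2, with 0.773 for the difference between lines. Aldh4a1 was at +0.14 and Mthfd2l at -0.12. Nnt, the transhydrogenase that makes much of the matrix NADPH, was at 7.74 to 8.15 in the 4 controls, 7.90 to 7.98 in shRNA 1 and 7.95 to 8.09 in shRNA 2 livers. No array stood apart, but a lack shared by all animals, or of part of the messenger, would not show in these values.

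Selenoprotein synthesis and selenium supply, on which Gpx1, Gpx4 and Txnrd2 depend, was evenly split, with 10 of 18 genes above 0 (median +0.01) and 1 higher and 2 lower at the unadjusted threshold; with quantile normalization 7 of 18 were above 0. The median was below 0 when control replicate 4 (-0.02), replicate 2 of shRNA 1 (-0.0077), or replicate 1 (-0.0062) or 2 (-0.0059) of shRNA 2 was left out. Secisbp2, which reads the selenocysteine signal, was at -0.19 and Trnau1ap, a partner of the selenocysteine transfer RNA, at -0.22 (adjusted p = 0.618 and 0.578). The selenium-binding proteins Selenbp1 (+0.32, adjusted p = 0.504) and Selenbp2 (-0.58, adjusted p = 0.513) lay on opposite sides, and these near-identical genes may share probes. Selenbp2 ran from 11.20 to 12.36 in controls, 10.73 to 11.09 in the shRNA 1 line and 11.19 to 11.93 in the shRNA 2 line.

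Metal supply of the dismutases had 6 of 12 genes above 0 (median -0.02), with 0 higher and 2 lower at the unadjusted threshold. With median centring the list's median was +0.02. It was also above 0 without control replicate 2 (+0.02) or shRNA 1 replicate 2 (+0.03). The lower ones were 2 metal importers, Slc11a2 at -0.29 (adjusted p = 0.481) and Slc39a14, at -0.23 (adjusted p = 0.527), both able to carry manganese. Slc39a8, another manganese importer on the list, named here after its value was seen, was at +0.06 (limma adjusted p = 0.910). Slc11a2 averaged 6.77 ± 0.13 (SD, n = 4) without a hairpin, 6.55 ± 0.13 (SD, n = 3) with shRNA 1 and 6.41 ± 0.20 (SD, n = 3) with shRNA 2, below every control in 5 of 6. Slc39a14 was at 9.53 ± 0.11 (SD, n = 4), 9.28 ± 0.18 (SD, n = 3) and 9.34 ± 0.10 (SD, n = 3), below every control in 4 of 6. The metallothionein Mt1 was at -0.42 and the copper exporter Atp7b at +0.18.

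Among regulators 9 of 18 genes were above 0 (median -0.0070, or +0.02 with median centring), with 2 higher and 1 lower at the unadjusted threshold. The median was above 0, at +0.0031 to +0.03, when any of 5 arrays was left out: control replicates 2 and 3, replicate 3 of shRNA 1, and replicates 1 and 3 of shRNA 2. Ppargc1a, the coactivator of mitochondrial genes that also acts on Sod2, ran from 6.38 to 6.77 in the 4 controls. It ran from 7.22 to 7.55 in shRNA 1 livers, all above every control, and from 6.72 to 7.28 in shRNA 2 livers, which overlapped the controls. For 5.07% of all genes tested the shRNA 1 livers lay above every control. The difference over both lines was +0.59 (limma adjusted p = 0.264). For shRNA 1 alone the difference was +0.84 (limma adjusted p = 0.0894) and for shRNA 2 it was +0.34 (adjusted p = 0.636). Nfe2l2, the master regulator of antioxidant genes, was at +0.21 (adjusted p = 0.570). Nfe2l1, its relative in the endoplasmic reticulum, was at -0.17 and Nrf1, which acts on nuclear genes for mitochondria, at -0.19 (adjusted p = 0.650 and 0.574).

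Peroxisomal oxidases, whose peroxide catalase removes, and peroxisomal import had 9 of 15 genes above 0 (median +0.05), with 3 higher and 1 lower at the unadjusted threshold. Without control replicate 4 the count was 7 of 15 and the median -0.0038, and without shRNA 2 replicate 1 they were 7 of 15 and -0.00068. The median was +0.02 without control replicate 1 or without shRNA 1 replicate 1. Ddo, D-aspartate oxidase, was at +0.23 (adjusted p = 0.481) and above every control in 6 of 6 adapted livers, where 1.04% of all genes were. Pipox, pipecolic acid oxidase, was at +0.21 and Hao1, glycolate oxidase, at -0.24 (adjusted p = 0.542 and 0.522). Hao2, a related hydroxyacid oxidase, was at +1.47 with a standard error of 0.64 (adjusted p = 0.570). Its values ran from 3.27 to 5.50 in controls and from 3.48 to 7.38 in adapted livers, overlapping widely. Control replicates 1, 2 and 3 (3.735, 3.496 and 3.266) and shRNA 2 replicate 1 (3.475) lay under the level filter of log2 3.98. Hao2 is thus a gene near the floor, and it is among the 3 higher ones counted above.

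**Figure D5:**
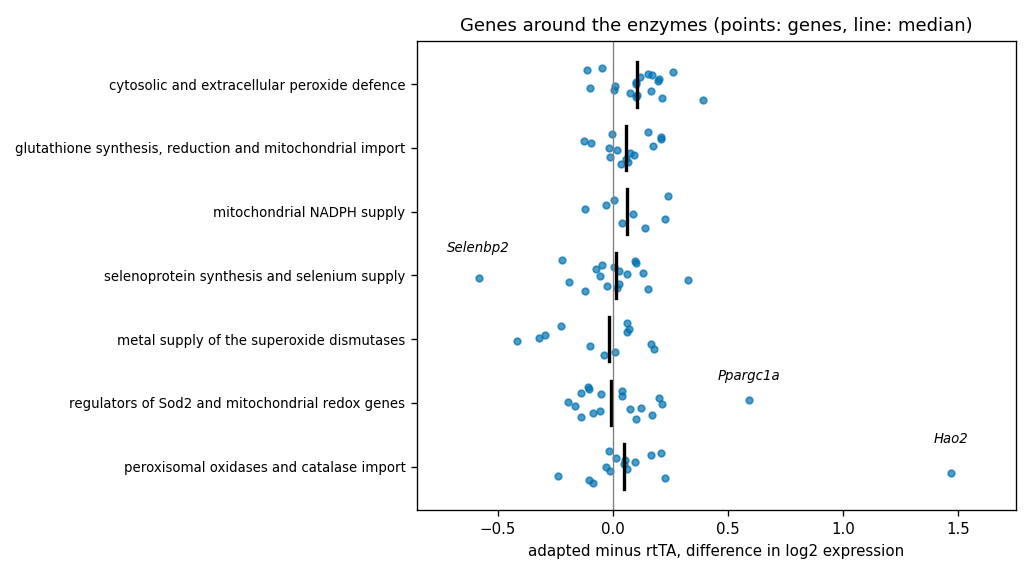
Adapted minus rtTA difference in log2 expression of 105 genes in 7 lists around the enzymes (points), with the median of each list as a black line; genes at least 0.5 from 0 are named. Medians lie between -0.02 and +0.11, and 0 of the genes passed the adjusted threshold. Hao2, the farthest from 0, was under the level filter on some arrays.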

How the data were processed

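Liver RNA from 10 samples was measured on a whole-transcript Affymetrix mouse array, 1 array per sample. The deposited values are log2 expression per transcript cluster, made by the authors with Affymetrix Expression Console per the submitters' processing notes; its version is not given in the sources used here, nor are background correction, normalization or build. That the values are log2 was judged from their range, 1.40 to 13.82. Of 41345 clusters, 23521 had 1 gene symbol; the one with the highest mean was kept per gene, and genes whose mean lay under the 40th percentile were dropped.

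One limma fit (3.58.1, R 4.3.3) over 3 groups gave 4 comparisons with Benjamini-Hochberg adjustment over 13308 genes, two-sided, and 95% intervals that were not adjusted. Exact permutation tests of single genes ran over samples. Pairs of enzymes were tested with 100000 permutations that exchanged arrays freely. The fit was also run on simulated data. The simulated shifts were far larger than the enzyme differences, so power for those was not measured. Python 3.11.15 and matplotlib 3.10.9 drew the figures.

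The enzymes and lists were chosen with earlier results of these data known. Besides the 10 enzymes and Nnt, up to 4 genes per list were named, by absolute moderated statistic in adapted against control, and for 3 enzymes the 3 genes most like them. Genes said to be named after their values were seen came in addition. Alternatives were other scalings, filters, thresholds, array weights, a robust prior with an intensity trend, a replicate block, the mean of a gene's clusters, only the groups compared, and leaving out each array.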

Additional observations from a re-analysis of the deposited data

Results flagged for a closer look

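Among the 9 enzymes, Nnt and the list genes named by their statistic, 1 control sample stood far from the others in its group. For Secisbp2, control replicate 3 was at 6.38 against 6.55 to 6.58 in the other 3 controls, a gap of 0.854 of the range of the 4 values, past Dixon's 95% critical value for 4 samples. Of 38 genes examined in this way, chance alone would give about 1 in 20 such values.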

How the results depend on the processing

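The alternatives covered 65 single-gene results. These were the enzymes in every comparison, with Nnt and the list genes named by their statistic in adapted against control only. Of the 1194 alternative values, 1123 kept their direction and side of the threshold and 71 changed sign without passing it. The cause was not tested. For list genes the values by line and between the lines, among them those of Ppargc1a, were not checked in this way. No enzyme passed in any alternative run, the lowest adjusted p being 0.420. For Prdx3, adapted minus control stayed between 0.18 and 0.29.

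With median centring the differences were 0.019 for Sod2, 0.031 for Gpx1, 0.0070 for Gpx4 and 0.024 for Txn2 in adapted livers, 0.023 for Gpx1 in shRNA 1 livers, and 0.011 for Sod1, 0.0019 for Sod2 and 0.017 for Gpx4 in shRNA 2 livers. With quantile normalization they were -0.047 for Sod2 in shRNA 1 livers, -0.0034 for Gpx1 in shRNA 2 livers and -0.0058 for Nnt in adapted livers. With array weights they were 0.0048 for Sod1 and -0.010 for Gpx1 in shRNA 2 livers and -0.0062 for Sod2 in shRNA 1 livers. Deviations of samples sharing a replicate number had correlations of -0.25 to 0.267 over 9 pairs (median 0.083). Over 18 pairs with different numbers they were -0.279 to 0.201 (median 0.010). The ranges overlapped, and whether the numbers mark a shared batch was not tested. With the replicate block, in which control replicate 4 stands alone and drops out in effect, the values were 0.032 for Sod1, -0.044 for Gpx1 and -0.015 for Txnrd2 in shRNA 2 livers, -0.0092 for Sod2 in shRNA 1 livers and 0.021 for Sod3 in adapted livers, and 4 genes were called between the lines.

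Genes called over the whole array were 1 for adapted, 0 for shRNA 1, 1 for shRNA 2 and 2 between the lines. The intensity trend with robust prior gave 6 for adapted, 30 for shRNA 1 and 7 between the lines. Array weights gave 19 for shRNA 1 and 6 between the lines. The filter at the 60th percentile gave 0 for adapted, 15 for shRNA 1, 0 for shRNA 2 and 1 between the lines. Quantile normalization gave 8 for shRNA 1 and 1 between the lines, median centring 4 between the lines, and the mean of a gene's clusters 7 for shRNA 1. An adjusted threshold of 0.10 gave 2, 20 and 8 for adapted, shRNA 1 and the lines. An unadjusted p of 0.05 gave 1114, 1050, 1011 and 801 in the 4 comparisons. Pairs of enzymes past the threshold numbered 1 with deviations from the mean of all arrays and 0 with arrays exchanged within groups; the latter and leaving out arrays for the pairs were chosen after seeing the data.

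Leaving out each array in turn gave 1 to 3, 0 to 11, 1 to 3 and 1 to 4 genes in the 4 comparisons, and 0 to 8 pairs. In adapted livers the ranges were -0.042 to 0.024 for Sod2, -0.124 to 0.021 for Sod3, -0.047 to 0.036 for Gpx1, -0.050 to 0.0035 for Gpx4, -0.040 to 0.018 for Txn2 and -0.064 to 0.071 for Nnt. In shRNA 1 livers they were -0.0096 to 0.046 for Sod2, -0.049 to 0.033 for Gpx1 and -0.082 to 0.025 for Gpx4. In shRNA 2 livers they were -0.063 to 0.051 for Sod1, -0.094 to 0.023 for Sod2, -0.014 to 0.131 for Sod3, -0.022 to 0.138 for Cat, -0.044 to 0.074 for Gpx1, -0.066 to 0.020 for Gpx4, -0.036 to 0.046 for Txn2 and -0.046 to 0.115 for Txnrd2. Between the lines they were -0.014 to 0.103 for Sod2, -0.020 to 0.140 for Cat, -0.077 to 0.038 for Gpx1, -0.063 to 0.044 for Gpx4, -0.138 to 0.034 for Prdx3 and -0.079 to 0.0035 for Txn2. Groups of 3 and 4 arrays set the precision, and the array gives no value for protein or enzyme activity.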
